A study of Homo sapiens with 12 samples.

Results

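ZNF genes carry the symbol ZNF and a number, and most encode proteins built of repeated C2H2 zinc fingers, short loops that hold a zinc ion and bind DNA or RNA. The 150 genes described here are the best counted of them: of 57353 rows in the table of gene counts, 474 have a symbol made of ZNF and digits, and the 150 were selected on their raw count summed over all 12 libraries, as the largest sums. These sums ran down to 635 for ZNF839 and 627 for ZNF200, just inside the limit, and ZNF468 with 627, a tie broken by symbol, and ZNF599 with 623 lay just outside it. All 150 matched a protein-coding gene in RefSeq, 149 by current symbol and 1 by an older one. In RefSeq, 46 of them lie on chromosome 19, 20 on chromosome 16 and 16 on chromosome 7.

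Counts came from HepG2 cells, a human liver cancer line labelled as wild type in all groups, and the study set the drug sorafenib against its vehicle. Sorafenib is a multikinase inhibitor used in liver cancer. The groups were sorafenib polysome, vehicle polysome, sorafenib light and vehicle light, with 3 libraries each; sorafenib cultures received 10 µM of the drug in DMSO for 12 h, and vehicle cultures received DMSO alone for 12 h. Lysates, prepared with cycloheximide to hold ribosomes on mRNA, were spread on sucrose gradients, and each of the 6 cultures gave a polysome pool (mRNA carrying several ribosomes) and a light pool (small complexes, free subunits and single ribosomes). All libraries come from 1 cell line, and none measured unfractionated RNA.

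Many ZNF proteins carry a KRAB domain, through which they bring the corepressor TRIM28 and the histone methyltransferase SETDB1 to transposable elements and other DNA targets, and many of their genes form clusters on chromosome 19. ZNF messenger RNAs as a class are known to be short-lived. Other members have separate trades: ZNF622 and ZNF593 are the human counterparts of yeast factors that mature the large ribosomal subunit, ZNF598 is a ubiquitin ligase that marks collided ribosomes, and ZNF638 is a nuclear nucleic acid-binding protein that helps to silence foreign DNA.

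The promoters of 4 members with large or opposite responses, chosen after their values were seen, show what stands upstream of them. Each is the 250 bases before the gene's start, read from RefSeq's table for GRCh38.p14 and written 5′ to 3′ on the gene's strand. Capitals mark matches to 6 searched motifs on either strand: an amino acid response element (TGATGNAA), a cyclic AMP element (TGACGTCA), a GC box (GGGCGG), a site for transcription factors of the ETS family (CCGGAAG), a site for the factor NRF1, and the CCAAT box. The ZNF622 stretch lies at chr5:16465801-16466050 on the minus strand. The ZNF593 stretch lies at chr1:26169658-26169907 on the plus strand. The ZNF629 stretch lies at chr16:30787206-30787455 on the minus strand. The ZNF556 stretch lies at chr19:2867085-2867334 on the plus strand.
ZNF622: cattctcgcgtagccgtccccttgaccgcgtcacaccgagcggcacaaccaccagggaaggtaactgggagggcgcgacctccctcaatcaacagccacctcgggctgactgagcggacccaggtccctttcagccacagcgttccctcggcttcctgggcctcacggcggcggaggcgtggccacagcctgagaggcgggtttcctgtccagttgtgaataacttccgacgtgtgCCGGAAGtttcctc
ZNF593: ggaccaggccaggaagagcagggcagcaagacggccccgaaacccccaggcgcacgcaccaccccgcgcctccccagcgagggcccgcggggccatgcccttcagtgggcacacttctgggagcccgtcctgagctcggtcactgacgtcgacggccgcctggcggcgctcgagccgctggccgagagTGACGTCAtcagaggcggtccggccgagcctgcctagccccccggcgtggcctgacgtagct
ZNF629: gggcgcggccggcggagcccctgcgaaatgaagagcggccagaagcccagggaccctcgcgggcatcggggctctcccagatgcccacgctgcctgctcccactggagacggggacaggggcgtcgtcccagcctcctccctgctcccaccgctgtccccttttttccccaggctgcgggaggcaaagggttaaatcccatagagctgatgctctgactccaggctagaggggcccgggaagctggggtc
ZNF556: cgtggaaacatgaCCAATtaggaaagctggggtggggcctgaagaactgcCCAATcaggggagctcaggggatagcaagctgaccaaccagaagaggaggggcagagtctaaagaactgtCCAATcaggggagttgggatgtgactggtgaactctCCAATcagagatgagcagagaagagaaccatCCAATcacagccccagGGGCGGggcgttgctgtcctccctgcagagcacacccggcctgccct
ZNF622 holds 1 ETS match, 14 bases before the start, ZNF593 holds 1 cyclic AMP element, 62 bases before it, ZNF556 holds 5 CCAAT boxes and 1 GC box, and ZNF629 holds none of the 6 motifs. An ETS match stood in 23.5% of the 136 members that have a promoter there, against 8.82% of all 27305 promoters. No limit to protein-coding genes was set on that background. A GC box stood in 68.4% of members and 42.3% of all, a CCAAT box in 42.6% of members and 33.0% of all, an NRF1 match in 11.8% of members and 5.53% of all, and a cyclic AMP element in 5.88% of members and 1.77% of all. An amino acid response element was found in 0% of members and 3.19% of all. The members' stretches were also richer in G and C, with a median of 64.0% against 58.0%, and no motif share was adjusted for that.

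Library totals were 10011614 to 13336689 counts in sorafenib polysome, 4769383 to 10584699 in vehicle polysome, 511065 to 4989312 in sorafenib light and 7387602 to 11955977 in vehicle light. The sorafenib light group stood apart from the rest. A member's median count there was 15 in library 1, 6 in library 2 and 40 in library 3, against 71 to 202 in the other groups, and 45, 109 and 2 members had fewer than 10 counts in those 3 libraries, against 0 members in any other library. Thinned to 511065 counts, sorafenib light library 2 showed 25638 detected rows and library 1 16840, against 13306 to 14565 in the other libraries. Across members, log2 values of replicates correlated at 0.675 to 0.846 in sorafenib light, against 0.89 to 0.973 in the other groups. Of the members' summed count, 38.7% came from sorafenib polysome, 32.1% from vehicle polysome, 5.3% from sorafenib light and 23.9% from vehicle light, so the choice of members leaned on the polysome libraries and little on sorafenib light. Hepatocyte markers were above 0 in all libraries, 10 of 10, with a summed level of 27700 to 35600 CPM in sorafenib polysome, 7460 to 15000 in vehicle polysome, 27700 to 29400 in sorafenib light and 4650 to 10100 in vehicle light. The marker sums here are counts scaled to library totals alone. Levels of single genes are given below as CPM, counts scaled to library size and corrected for library composition by TMM. Each change is thus measured against the rest of the genes. Endothelial markers, 3 genes of which 0 were above 0 in all libraries, summed to 0.45 to 1.3 CPM in sorafenib polysome, 0.626 to 1.47 in vehicle polysome, 1.46 to 21.5 in sorafenib light and 0.418 to 0.708 in vehicle light. Fibroblast markers, 1 of 4 above 0 in all, summed to 0.825 to 1.89 CPM in sorafenib polysome, 1.51 to 1.98 in vehicle polysome, 1.2 to 25.4 in sorafenib light and 0.92 to 1.49 in vehicle light. Leukocyte markers, 3 of 4 above 0 in all, summed to 362 to 545 CPM in sorafenib polysome, 456 to 657 in vehicle polysome, 189 to 317 in sorafenib light and 63.5 to 209 in vehicle light. Their part in the results was not tested.

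Together the 150 genes took 0.372%, 0.343% and 0.386% of counts in sorafenib polysome libraries, against 0.417%, 0.421% and 0.385% in vehicle polysome libraries. In the light pool they took 0.215%, 0.264% and 0.219% in sorafenib libraries, against 0.254%, 0.253% and 0.268% in vehicle libraries. The groups overlapped in both pools. The members' shares were above 0.34% in every polysome library and below 0.27% in every light library, in either treatment, but the members had been chosen mainly on polysome counts. Over all 474 ZNF rows the pools were not separate, with 0.425% in sorafenib light library 2 and 0.424% in sorafenib polysome library 2.

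**Figure D1:**
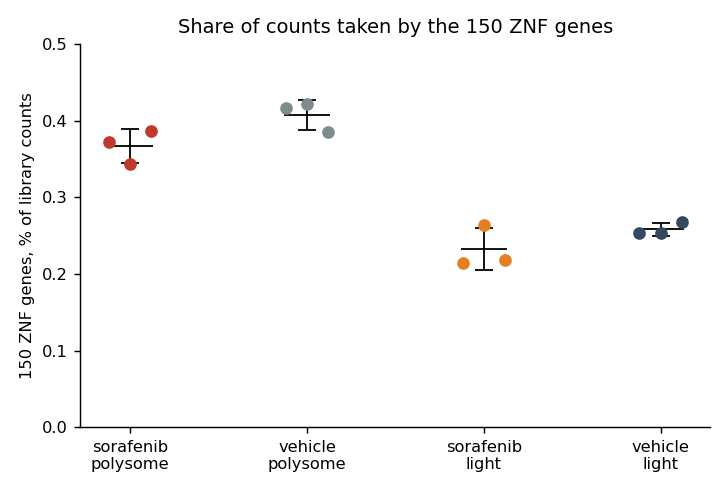
Share of each library's counts taken by the 150 ZNF genes (y axis, percent), for the 4 groups on the x axis; points are libraries and bars the mean with SD over 3 libraries. Means were 0.367% ± 0.022 in sorafenib polysome, 0.408% ± 0.020 in vehicle polysome, 0.233% ± 0.028 in sorafenib light and 0.259% ± 0.009 in vehicle light.

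On polysomes, sorafenib lowered more members than it raised, a direction that turned to 29 higher and 16 lower when no filter on low counts was set. Over all 45832 rows then tested, 8.52% were higher and 3.63% lower, against 19.3% and 10.7% of members. The direction thus turned for all rows as well as for the members. By edgeR's quasi-likelihood test across 14955 genes, with Benjamini-Hochberg adjusted p under 0.05, 19 members rose, 56 fell and 75 did not pass, that is 12.7% higher and 37.3% lower. Over all tested genes 20.9% were higher and 28.8% lower, so the members held fewer rises and more falls than the background. Among the 9085 tested genes whose mean log2 CPM lay in the members' range, 27.1% were higher and 29.6% lower. The members' median log2 fold change was -0.41, within -3.75 to 1.82, beside -0.26 for all tested genes and -0.09 for those in the range. Sorafenib and vehicle libraries did not overlap for 24 members that were higher and 64 that were lower, where the background was 25.3% and 35.0% of genes. Since the libraries come from bulk cultures, fewer cells with a transcript and less of it per cell cannot be told apart.

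The risers were led by ZNF622, whose yeast counterpart Rei1 recycles a factor from the large ribosomal subunit in the cytoplasm. It had 110.3, 98.2 and 81.9 CPM in sorafenib polysome libraries, against 26.3, 28.2 and 28.0 CPM in vehicle polysome libraries (log2 fold change 1.82, SE 0.24, edgeR adjusted p = 1.06e-05). The lowest sorafenib library lay far above the highest vehicle library. ZNF579, a little-studied zinc finger protein, had 23.0, 15.9 and 22.7 CPM in sorafenib polysome libraries, against 4.93, 7.62 and 7.86 CPM in vehicle polysome libraries (log2 fold change 1.60, SE 0.26, edgeR adjusted p = 7.76e-05). ZNF697, ZNF777, ZNF133 and ZNF548 rose next, by log2 fold changes of 1.59, 1.48, 1.38 and 1.37, and in each of the 4 the groups did not overlap. Other members that rose were ZNF318, which in mouse B cells steers the splicing that yields IgD, by 1.08 (SE 0.21), ZNF609, a partner of the Integrator complex and the cohesin loader NIPBL, by 1.06 (SE 0.28), and ZNF326, a subunit of the DBIRD complex that links RNA polymerase II to splicing, by 0.92 (SE 0.24). ZNF326 did not pass when every library was thinned to the depth of the shallowest (log2 fold change 0.63, edgeR adjusted p = 0.13).

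The largest fall among all members was that of ZNF629, which had 1.66, 0.917 and 1.76 CPM in sorafenib polysome libraries, against 22.3, 20.7 and 15.2 CPM in vehicle polysome libraries (log2 fold change -3.75, SE 0.30, edgeR adjusted p = 3.36e-07). ZNF32 had 3.24, 4.64 and 2.82 CPM in sorafenib polysome libraries, against 15.1, 15.6 and 17.2 CPM in vehicle polysome libraries (log2 fold change -2.15, SE 0.27, edgeR adjusted p = 6.16e-06). ZNF556 had 12.2, 9.97 and 12.7 CPM in sorafenib polysome libraries, against 34.4, 55.3 and 36.3 CPM in vehicle polysome libraries (log2 fold change -1.85, SE 0.23, edgeR adjusted p = 5.62e-06). In all 3 genes every sorafenib library lay below every vehicle library. ZNF813 and ZNF514 fell by log2 fold changes of -1.71 and -1.69. ZNF593, whose yeast counterpart Bud20 accompanies new large subunits out of the nucleus, moved the opposite way to ZNF622 and had 79.5, 64.1 and 70.0 CPM in sorafenib polysome libraries, against 185, 245 and 176 CPM in vehicle polysome libraries (log2 fold change -1.50, SE 0.24, edgeR adjusted p = 7.66e-05). Its groups were separate by a wide margin. ZNF395, a factor that hypoxia induces, fell with a log2 fold change of -1.29 (SE 0.27, edgeR adjusted p = 0.00069). ZNF598, the ligase of collided ribosomes, had 35.8, 21.5 and 32.4 CPM in sorafenib polysome libraries, against 21.5, 28.7 and 26.8 CPM in vehicle polysome libraries, and these overlapped (log2 fold change 0.22, SE 0.24, edgeR adjusted p = 0.447).

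Of the 19 rises, 19 passed under each of 4 other scalings, and of the 56 falls 39 did. The split of higher to lower calls was 28 to 39 with TMM scaling within each pool, 26 to 44 with TMM scaling to vehicle polysome library 1 and 25 to 43 with library totals alone, and without both shallow sorafenib light libraries it was 31 to 40. All tested genes moved as well, to 26.2% higher and 21% lower with scaling within each pool, beside 18.7% and 26% of members. The shares were 24.5% and 23% with vehicle polysome library 1 as the reference, beside 17.3% and 29.3% of members. With library totals they were 23.8% and 23.1%, beside 16.7% and 28.7% of members. Leaving out sorafenib polysome library 3 gave 12 rises, and 29 rises were called without sorafenib light library 2, sorafenib light library 3 or vehicle light library 3. Of all tested genes, 15% rose in the first of these fits and 27.8%, 25.5% and 24.6% in the others. Falls numbered 36 without sorafenib light library 1, 35 without vehicle light library 1, 34 without vehicle light library 2 and 37 without vehicle light library 3. In that order these were 24%, 23.3%, 22.7% and 24.7% of members, beside 19.1%, 16.4%, 15.8% and 17.4% of all tested genes. The median of all tested genes was -0.26 in this fit, -0.03 with scaling within each pool and -0.12 with library totals, and the members' median lay 0.15 below it, or 0.14 below it with scaling within each pool. Across 21 alternative fits other than thinning, 11 rises and 16 falls passed every time, among them the genes named above other than ZNF598.

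In the light pool most members that passed the test were lower with sorafenib. By the same test 4 members rose, 64 fell and 82 did not pass, or 2.67% higher and 42.7% lower, where 11.7% and 17.7% of all tested genes, and 12.7% and 21% of those in the members' range of levels, were higher and lower. With library totals alone 13 rose and 35 fell (8.67% and 23.3%), beside 24.4% and 8.8% of all tested genes. Of the 64 falls, 35 passed under each of the 4 other scalings. Of the 150 log2 fold changes, 125 were below 0, and their median was -0.76 beside -0.12 for all tested genes. The groups did not overlap for 5 higher and 71 lower members, against a background of 15.0% and 24.6% of genes. These values rest on the shallow sorafenib light libraries. Without sorafenib light library 1, 38 members fell (25.3%), beside 9.12% of all tested genes. Without both libraries 1 and 2, a single sorafenib light library is left, assumed to vary like the others. The members' median was then -0.53, beside -0.07 for all tested genes. Leaving out vehicle light library 1 gave 43 falls (28.7%), beside 10.8% of all tested genes.

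ZNF556 was lowered most firmly. It had 7.63, 5.61 and 7.94 CPM in sorafenib light libraries, against 47.4, 47.3 and 46.5 CPM in vehicle light libraries (log2 fold change -2.65, SE 0.28, edgeR adjusted p = 9.17e-06), and the vehicle libraries were nearly equal. ZNF629 had 2.35, 3.74 and 3.27 CPM in sorafenib light libraries, against 22.4, 15.1 and 16.6 CPM in vehicle light libraries (log2 fold change -2.56, SE 0.38, edgeR adjusted p = 0.000114). Its groups were separate, but after thinning to the depth of the shallowest library its adjusted p by edgeR was 0.0684. ZNF813 had the lowest log2 fold change of the light pool, -2.72, and ZNF764, ZNF865 and ZNF514 had -2.33, -2.30 and -1.93. ZNF813 had 9.39, 1.87 and 1.17 CPM in sorafenib light libraries, against 29.8, 25.1 and 20.5 CPM in vehicle light libraries, and was not called after thinning either (log2 fold change -1.21, edgeR adjusted p = 0.324).

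Among the other members that fell in the light pool were some of the best counted. ZNF219, a partner of SOX9 in cartilage, had 38.7, 26.2 and 69.8 CPM in sorafenib light libraries, against 164, 159.9 and 189 CPM in vehicle light libraries (log2 fold change -1.83, SE 0.28, edgeR adjusted p = 0.00018). ZNF638 had 16.4, 16.8 and 17.0 CPM in sorafenib light libraries, against 48.5, 62.6 and 46.3 CPM in vehicle light libraries (log2 fold change -1.65, SE 0.26, edgeR adjusted p = 0.000188). Neither gene's groups overlapped, and the sorafenib libraries of ZNF638 were almost alike. ZNF503, a developmental repressor, ZNF787 and ZNF358 had log2 fold changes of -1.87 (SE 0.29), -1.38 (SE 0.24) and -1.81 (SE 0.31). ZNF146, made almost wholly of zinc fingers, had -1.23 (SE 0.24), and ZNF337 had -2.10 (SE 0.41). Thinning ended the calls of both, with edgeR adjusted p = 0.123 for ZNF146 and 0.169 for ZNF337.

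The 4 members that rose in the light pool were ZNF428, ZNF593, ZNF622 and ZNF410. ZNF428 had 131, 91.6 and 71.0 CPM in sorafenib light libraries, against 20.7, 25.5 and 42.7 CPM in vehicle light libraries (log2 fold change 1.73, SE 0.29, edgeR adjusted p = 0.000359). ZNF593 had 304, 230.0 and 184 CPM in sorafenib light libraries, against 87.2, 75.5 and 112 CPM in vehicle light libraries (log2 fold change 1.39, SE 0.25, edgeR adjusted p = 0.000506). ZNF622 had 80.4, 56.1 and 62.6 CPM in sorafenib light libraries, against 17.7, 28.4 and 33.4 CPM in vehicle light libraries (log2 fold change 1.35, SE 0.25, edgeR adjusted p = 0.000692). In these 3 genes the groups were separate, and they passed in all 22 alternatives run. ZNF410, which activates the chromatin remodeller gene CHD4, rose by 0.61 (SE 0.22, edgeR adjusted p = 0.0409), and that call was lost in 15 alternatives. ZNF598 had 19.4, 28.1 and 32.2 CPM in sorafenib light libraries, against 31.0, 26.9 and 31.1 CPM in vehicle light libraries, with overlap and a log2 fold change of -0.15 whose sign turned under library totals.

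**Figure D2:**
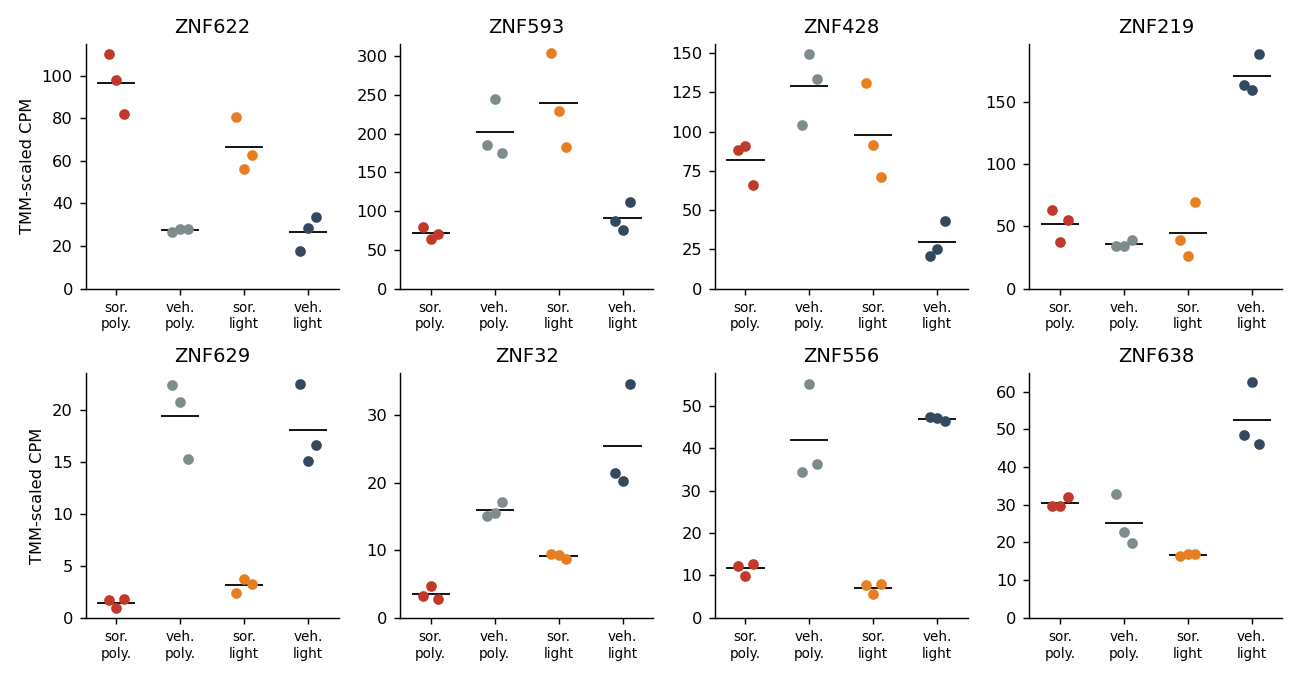
TMM-scaled CPM (y axes, each starting at 0) of 8 members in the 4 groups; each point is a library and each bar the mean of 3. ZNF622 was higher with sorafenib in both pools, ZNF629, ZNF32 and ZNF556 were lower in both, ZNF593 was lower on polysomes and higher in the light pool, and ZNF428, ZNF219 and ZNF638 were called only in the light pool.

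Set side by side, 30 members fell in both pools, where 9.23% of all tested genes did. Among them were ZNF629, ZNF32, ZNF556, ZNF813, ZNF514 and ZNF764, as well as ZNF664, one of the 3 best-counted members, with log2 fold changes of -1.07 on polysomes and -0.81 in the light pool, the second of which was lost in 9 alternatives. ZNF622 alone rose in both, where the background was 4.59%. ZNF24, ZNF408 and ZNF276 rose on polysomes and fell in the light pool, where the background was 1.36%, and ZNF593 alone did the opposite. Another 25 members fell and 15 rose on polysomes without passing in the light pool, 31 fell and 2 rose in the light pool without passing on polysomes, and 42 passed in neither. For these counts, and for the pattern of ZNF593, the share over all tested genes was not worked out. They cannot be read as particular to the members.

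**Figure D3:**
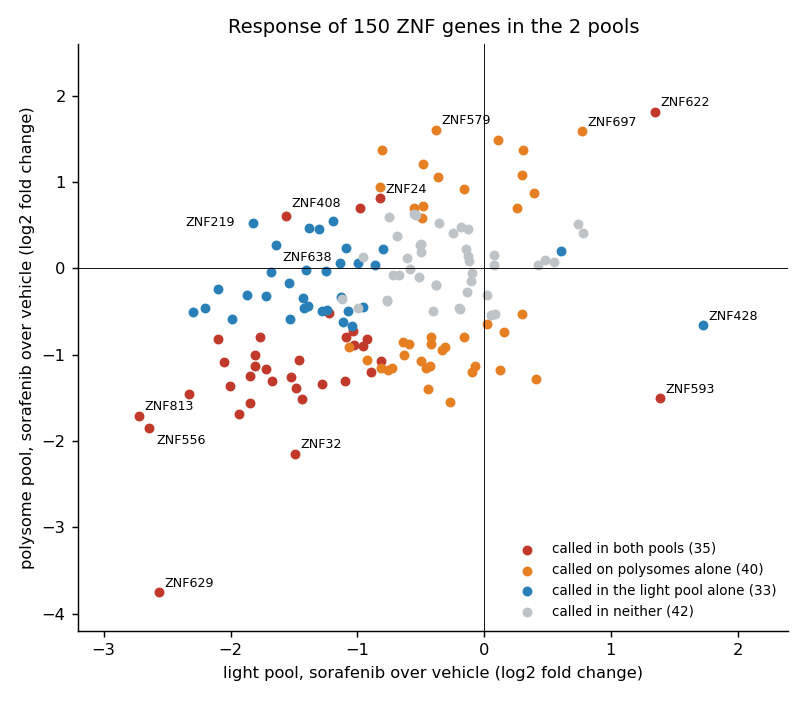
Log2 fold change of sorafenib over vehicle in the light pool (x axis) and on polysomes (y axis) for each of the 150 ZNF genes, coloured by where the edgeR test called it. Most points lie left of 0 on the x axis, 125 of 150, while 97 lie below 0 on the y axis, and ZNF622, ZNF593 and ZNF428 stand to the right.

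**Figure D4:**
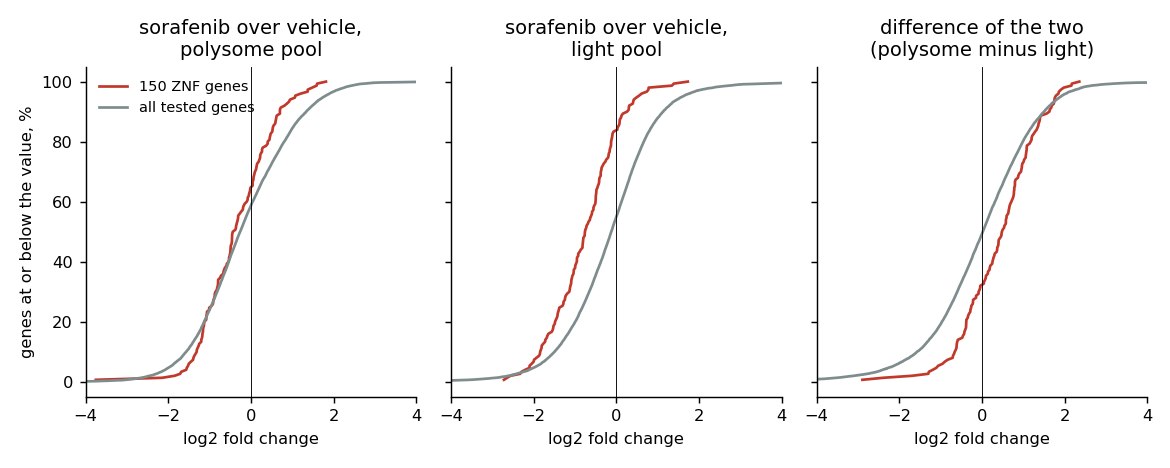
Percent of genes (y axis) at or below each log2 fold change (x axis) for the 150 ZNF genes and all 14955 tested genes, on polysomes, in the light pool and for the difference between the pools. The members' curve lies left of the background in the light pool (medians -0.76 and -0.12) and right of it for the difference (0.49 and 0.02).

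Whether sorafenib acted unequally on the pools was tested as an interaction, the log2 fold change on polysomes minus that in the light pool. It was positive and past the threshold for 29 members and negative for 5, while 116 did not pass, where 12.8% and 10.7% of all tested genes were positive and negative (19.3% and 3.33% of members). Among tested genes in the members' range of levels the shares were 17.9% and 11.3%, so the members' share of positive differences lay near that of genes counted as well, and their share of negative ones below it. The median was 0.49 beside 0.02 for all tested genes and 0.15 for those in the range. Across the alternative fits other than thinning, 13 of the 29 and 2 of the 5 passed every time. Of the 29, 14 had fallen in the light pool alone, 11 had risen on polysomes alone, 3 had done both and 1 had passed in neither. For this breakdown the share over all tested genes was not worked out, so it cannot be read as particular to the members. Library totals alone gave a split of 15 to 11, or 10% and 7.33% of members, beside 8.09% and 16% of all tested genes. Scaling within each pool gave 41 to 4, or 27.3% and 2.67%, beside 15.6% and 8.57%. The members' median lay 0.47 above that of all tested genes with TMM over all libraries, and 0.48 above it with library totals. The positive count was 18 without sorafenib polysome library 1, 44 without sorafenib light library 2 and 47 without sorafenib light library 3. These were 12%, 29.3% and 31.3% of members, beside 8.86%, 16.1% and 17.3% of all tested genes. The negative count was 3 (2%) without sorafenib light library 1, vehicle polysome library 2, vehicle light library 1 or vehicle light library 2. Beside it stood 5.45%, 7.17%, 5.36% and 4.98% of all tested genes. Without both shallow libraries the members' median was 0.61, beside 0.23 for all tested genes.

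ZNF219 had the largest positive difference between pools, 2.36 (SE 0.39, edgeR adjusted p = 0.000315), its polysome log2 fold change being 0.53 and not past the threshold (edgeR adjusted p = 0.104), although 12 alternatives called it. ZNF408, in which mutations cause retinal disease, had 2.16 (SE 0.38, edgeR adjusted p = 0.000598). ZNF579 had 1.98 (SE 0.38, edgeR adjusted p = 0.00117), with a light-pool log2 fold change of -0.38 that did not pass and turned to 0.06 under library totals. ZNF638 had 1.91 (SE 0.34, edgeR adjusted p = 0.00058), with 0.27 on polysomes. ZNF787, ZNF592 and ZNF24 had differences of 1.85 (SE 0.33), 1.74 (SE 0.38) and 1.63 (SE 0.36). ZNF592 works in a chromatin complex with ZMYND8, and ZNF24 is a SCAN-domain repressor of VEGF. ZNF24 had 55.5, 53.8 and 56.2 CPM in sorafenib polysome libraries, against 40.3, 26.8 and 26.9 CPM in vehicle polysome libraries, and 29.9, 11.2 and 23.8 CPM in sorafenib light libraries, against 46.1, 35.8 and 42.3 CPM in vehicle light libraries. Its groups were separate in both pools. Its rise on polysomes (log2 fold change 0.81) missed the threshold without vehicle polysome library 2 (0.71, edgeR adjusted p = 0.0526), and its fall in the light pool (-0.82) was lost in 13 alternatives.

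ZNF593 had the largest negative difference, -2.89 (SE 0.35, edgeR adjusted p = 3.81e-05), and ZNF428 followed with -2.39 (SE 0.40, edgeR adjusted p = 0.000363). Both passed in all 22 alternatives. ZNF428 had 88.3, 90.7 and 65.8 CPM in sorafenib polysome libraries, against 104, 149 and 134 CPM in vehicle polysome libraries, a log2 fold change of -0.66 (edgeR adjusted p = 0.0503) that passed only without vehicle polysome library 1 (-0.82). ZNF395 came next with -1.69 (SE 0.42, edgeR adjusted p = 0.0066), and in the light pool its log2 fold change of 0.41 did not pass. Its difference was not called without both shallow sorafenib light libraries (-1.30, edgeR adjusted p = 0.0576).

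Between the pools of sorafenib cells, 25 members were higher and 10 lower on polysomes than in the light pool, beside 13.4% and 12.4% of all tested genes. In vehicle cells 10 were higher and 34 lower, beside 18.3% and 17.8%. Of the tested genes in the members' range of levels, 20.3% were higher and 8.63% lower in sorafenib cells, close to the members' 16.7% and 6.67%, and 24.2% were higher and 17.5% lower in vehicle cells, against the members' 6.67% and 22.7%. These counts depended on the scale, and so did the shares of all tested genes. With library totals alone they were 74 to 4 in sorafenib cells (49.3% and 2.67%), beside 37.4% and 6.11% of all tested genes. In vehicle cells they were then 78 to 7 (52% and 4.67%), beside 48.9% and 5.86%. With scaling within each pool they were 96 to 4 in sorafenib cells (64% and 2.67%), beside 47.1% and 4.95%. In vehicle cells they were then 54 to 9 (36% and 6%), beside 39.7% and 7.55%. The median of all tested genes moved to 0.82 in vehicle cells under library totals, against -0.06. Relative to that median the members' median lay 0.25 above in sorafenib cells and 0.07 below in vehicle cells, and under library totals it lay 0.26 above in sorafenib cells and 0.07 below in vehicle cells. After thinning it lay 0.027 below in sorafenib cells. Without thinning, genes in the members' range had a median of 0.23 in sorafenib cells, beside 0.25 for the members and -0.004 for all tested genes. The members' median without thinning thus lay close to that of genes counted as well. In sorafenib cells the higher count was 42 without sorafenib light library 3 (28%), beside 21% of all tested genes. It was 42, 39 and 45 without vehicle light libraries 1, 2 and 3 (28%, 26% and 30%), beside 18.8%, 18.6% and 19.7%. Without both shallow libraries the members' median was 0.37, beside 0.17 for all tested genes. The lower count in sorafenib cells was 6 (4%) without sorafenib polysome library 3, sorafenib light library 1 or sorafenib light library 3, beside 8.53%, 6.11% and 13.4%. In vehicle cells the lower count was 18 without vehicle light library 1, 22 without vehicle light library 2 and 20 without vehicle polysome library 2. These were 12%, 14.7% and 13.3% of members, beside 11.8%, 11.9% and 12.5% of all tested genes.

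Across those scalings some members kept their place in vehicle cells. ZNF219 and ZNF277 leaned to the light pool with polysome over light log2 fold changes of -2.25 (SE 0.28) and -2.23 (SE 0.27), and ZNF865, ZNF90 and ZNF579 with -2.17, -2.06 and -1.83. ZNF428, ZNF395, ZNF704, ZNF652 and ZNF593 leaned to polysomes with 2.13, 1.80, 1.44, 1.43 and 1.14. All 10 passed in every alternative run. ZNF90 had 35.5, 37.1 and 21.4 CPM in sorafenib polysome libraries, against 102, 37.4 and 126 CPM in sorafenib light libraries (log2 fold change -1.57), and 60.5, 43.4 and 41.1 CPM in vehicle polysome libraries, against 196, 197 and 211 CPM in vehicle light libraries. Its pools were separate in both treatments, by a narrow margin in sorafenib cells. ZNF593 was the only member called lower on polysomes in sorafenib cells (log2 fold change -1.75 (SE 0.25, edgeR adjusted p = 8.32e-05)) and higher there in vehicle cells. ZNF91, the repressor of SVA elements, had a log2 fold change of -1.77 (SE 0.39) in sorafenib cells, which was -0.73 with edgeR adjusted p = 0.234 without both shallow libraries.

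**Figure D5:**
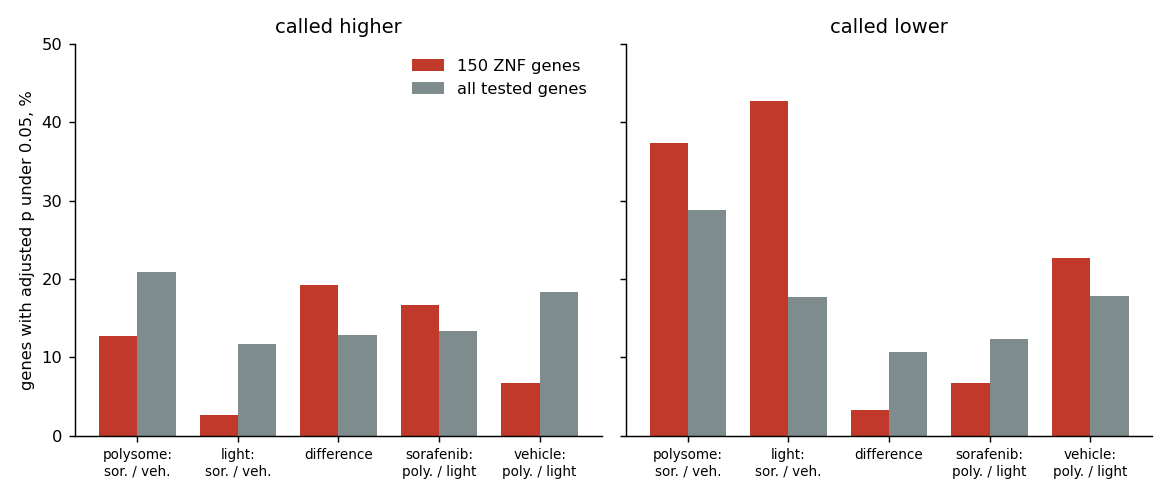
Percent of genes called higher (left) and lower (right) at adjusted p under 0.05 in each of 5 comparisons, for the 150 ZNF genes and all 14955 tested genes; bars start at 0. The widest gap is in the light pool, where 42.7% of members and 17.7% of all tested genes were lower with sorafenib.

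By chromosome, the 46 members on chromosome 19 held 4 rises and 21 falls on polysomes (median log2 fold change -0.56) and 1 rise and 20 falls in the light pool (-0.78). The other 104 members held 15 rises and 35 falls on polysomes (-0.29) and 3 rises and 44 falls in the light pool (-0.75). Over all tested genes 20.9% rose and 28.8% fell on polysomes, and 11.7% rose and 17.7% fell in the light pool. The difference between these chromosome groups was not tested. The 225 tested ZNF genes outside the 150 held 14 rises and 45 falls on polysomes (-0.41) and 4 rises and 30 falls in the light pool (-0.53), at lower counts. Their falls were 20% on polysomes and 13.3% in the light pool, both under the share of all tested genes, and their rises were 6.22% and 1.78%.

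The partners of KRAB zinc fingers were read from a list of 23 symbols of corepressor and heterochromatin genes. FAM208A and TASOR on it name the same gene, so the list held 22 genes, and all 22 were tested. On polysomes 10 rose and 4 fell, with a median log2 fold change of 0.64, beside 20.9% and 28.8% of all tested genes. TRIM28, the shared corepressor, averaged 368 ± 15.5 CPM in sorafenib polysome libraries and 90.5 ± 7.71 CPM in vehicle polysome libraries (SD, n = 3 each), with a log2 fold change of 2.03 (SE 0.28, edgeR adjusted p = 1.98e-05). UHRF1 and DNMT1, which copy DNA methylation after replication, rose by 2.05 (SE 0.32) and 1.65 (SE 0.28), the remodeller CHD4 by 1.33 (SE 0.30) and SETDB1 by 1.09 (SE 0.25). The fallers included TASOR, of the HUSH silencing complex, with -1.03 (SE 0.26), the histone chaperone DAXX with -1.03 (SE 0.25) and the histone methyltransferase SUV39H2 with -0.92 (SE 0.23). In the light pool 3 of the list rose and 5 fell (13.6% and 22.7%, near the 11.7% and 17.7% of all tested genes), SUV39H1 falling furthest with -1.88 (SE 0.37). Under library totals the split was 6 to 3, beside 24.4% and 8.8% of all tested genes. TRIM28 in the light pool had a log2 fold change of -0.28 that did not pass and whose sign turned with the scaling. The difference between pools was positive for 9 of the list and negative for 1, beside 12.8% and 10.7% of all tested genes. Under library totals it was 6 to 2, beside 8.09% and 16%. The 9 included TRIM28 at 2.30 (SE 0.40) and UHRF1 at 2.71 (SE 0.51). The genes named for the polysome pool passed under all 5 scalings.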

How the data were processed

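RNA was measured in 12 libraries of HepG2 cells, 3 for each of 4 groups. The authors deposited raw counts, whole numbers for each gene and library. Per the submitters' processing notes, reads were placed on GRCh38.p12; the sources used here do not give how reads were aligned, assigned to genes and read for strand. The labels call the experiments triplicate. If cultures were not independent, p-values measure the spread between libraries alone.

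The 150 members, the gene lists and the tests were chosen with earlier results of these data known. The tests ran in edgeR 4.0.16 (R 4.3.3, limma 3.58.1): filterByExpr left 14955 rows, which hold 375 of the 474 ZNF rows and all 150 members, TMM factors were 0.637 to 1.41, and 1 quasi-likelihood fit with no block covered the 12 libraries, with Benjamini-Hochberg adjustment over all rows. Each SE was obtained by dividing the size of the log2 fold change by the root of its F statistic. The common biological coefficient of variation was 0.245. Of the members, 148 had a count above 0 in every library and 0 had counts identical to another row, but reads of near-identical ZNF paralogs may be shared in ways the counts do not show. Replicates of each group differed by more than sampling noise, with chi-square over degrees of freedom of 8.71 to 49.

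Named genes were the 10 with the largest summed count, the 5 largest rises and falls of each comparison among called members whose groups did not overlap, and 30 members from a list of 35 genes with a known role; not all are described, and which were left out was settled with the values known. Groups by protein motif were planned but not made, since no protein sequences were used here. Alternatives were other scalings, no filter, DESeq2 1.42.0, blocks, fits of only the groups compared, thinning, each library left out, both shallow sorafenib light libraries left out, and members chosen by mean CPM. Both pools of a culture share a number in the labels. Deviations of such a pair from their group means correlated at 0.05, 0.041 and 0.035 in sorafenib cultures and 0.14, -0.071 and 0.33 in vehicle cultures. Sorafenib polysome library 3 has the sample index of vehicle light library 1 in its label, and the others have an index that follows their number. Fits were tested on simulated counts, and figures were drawn with matplotlib 3.10.9.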

Additional observations from a re-analysis of the deposited data

Results flagged for a closer look

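Among the members named by the rule, 24 had a sorafenib effect on polysomes that differed from the effect in the light pool. The test was the interaction term of edgeR's quasi-likelihood fit, given on the log2 scale as polysomes minus light pool. The rule itself took the 5 largest called differences on each side, so this count was partly set in advance. Of all 150 members 19.3% were positive and 3.33% negative, beside 12.8% and 10.7% of all tested genes. The largest positive differences were those of ZNF219 at 2.36 (adjusted p = 0.000315), ZNF548 at 2.18 (adjusted p = 0.0126), ZNF408 at 2.16 (adjusted p = 0.000598), ZNF579 at 1.98 (adjusted p = 0.00117), ZNF638 at 1.91 (adjusted p = 0.00058), ZNF337 at 1.86 (adjusted p = 0.0112) and ZNF787 at 1.85 (adjusted p = 0.000606). Next came ZNF865 at 1.79 (adjusted p = 0.0164), ZNF217 at 1.76 (adjusted p = 0.026), ZNF592 at 1.74 (adjusted p = 0.00299), ZNF24 at 1.63 (adjusted p = 0.00322), ZNF503 at 1.56 (adjusted p = 0.00583), ZNF609 at 1.43 (adjusted p = 0.0333) and ZNF777 at 1.37 (adjusted p = 0.0324). Smaller positive differences were found for ZNF384 at 1.22 (adjusted p = 0.028), ZNF263 at 1.20 (adjusted p = 0.0443), ZNF277 at 1.18 (adjusted p = 0.0288), ZNF326 at 1.08 (adjusted p = 0.0346) and ZNF133 at 1.07 (adjusted p = 0.0311). Negative differences were found for ZNF593 at -2.89 (adjusted p = 3.81e-05), ZNF428 at -2.39 (adjusted p = 0.000363), ZNF395 at -1.69 (adjusted p = 0.0066), ZNF761 at -1.30 (adjusted p = 0.0473) and ZNF580 at -1.28 (adjusted p = 0.0138). For ZNF217, an oncogene product that binds the CoREST complex, the values were 23.4, 20.6 and 31.9 CPM in sorafenib polysome libraries, 31.1, 12.4 and 11.2 CPM in vehicle polysome libraries, 9.98, 5.61 and 14.9 CPM in sorafenib light libraries and 37.5, 32.0 and 16.8 CPM in vehicle light libraries, and its groups overlapped on polysomes and were separate in the light pool. The calls of ZNF263, ZNF326, ZNF580, ZNF761 and ZNF777 were each lost in 6 or more of the alternatives run. Those of ZNF217, ZNF609, ZNF384, ZNF277 and ZNF133 were each lost in 4 or 5, with library totals among them (adjusted p = 0.0578, 0.106, 0.0849, 0.0826 and 0.125), those of ZNF337, ZNF395 and ZNF548 in 1 or 2, and that of ZNF865 without sorafenib polysome library 1 (1.46, adjusted p = 0.0611).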

How the results depend on the processing

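Results were recomputed under 25 settings. Of 3297 recomputed values of named genes in 149 pairs of gene and comparison, 2832 kept their direction and side of the threshold, 438 lost their call, 13 gained one and 14 changed sign. Members called higher and lower, in that order, were 29 and 16 on polysomes without the filter on low counts, and 4 and 19 after thinning to 511065 counts, when 81 members were still tested. In the light pool 13 and 35 were called with library totals, 38 lower without both shallow sorafenib light libraries and 20 lower after thinning. For the difference between pools the counts were 15 and 11 with library totals, 44 and 2 without the filter, 12 and 3 after thinning, and 2 lower without both shallow libraries. On polysomes 31 were higher without both shallow libraries. For polysomes over the light pool in sorafenib cells they were 96 and 4 with TMM within each pool, 74 and 4 with library totals, 61 and 4 without the filter, 15 and 3 without both shallow libraries, and 3 and 6 after thinning. In vehicle cells they were 54 and 9 with TMM within each pool, 78 and 7 with library totals, 17 lower without the filter, and 5 and 15 after thinning. The shares of all tested genes moved under these settings as well, and the cause of the shifts was not tested. Among all 375 tested ZNF rows 33 were higher and 101 lower on polysomes, 8 higher in the light pool, 8 lower for the difference, and 20 in sorafenib cells and 62 in vehicle cells were lower on polysomes than in the light pool. Choosing 150 by mean CPM kept 144 of the members and moved no count by over 1.5 times. Leaving out each library in turn gave 12 to 29 higher and 34 to 55 lower on polysomes, 3 to 4 and 38 to 69 in the light pool, 18 to 47 and 3 to 5 for the difference, 17 to 45 and 6 to 11 between pools in sorafenib cells and 8 to 12 and 18 to 37 in vehicle cells.

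With the replicate number as a block the counts were 18 and 54 on polysomes, 3 and 62 in the light pool, 26 and 5 for the difference, 26 and 11 in sorafenib cells and 10 and 31 in vehicle cells. With the culture as a block they were 33 and 6 for the difference, 27 and 12 in sorafenib cells and 11 and 36 in vehicle cells. Deviations of same-numbered sorafenib and vehicle libraries correlated at -0.2, -0.042 and 0.019 on polysomes and -0.0054, -0.15 and -0.15 in the light pool. The 2 pools of the same sorafenib culture correlated at only 0.05, 0.041 and 0.035. These values therefore cannot tell whether libraries were paired across treatments, where the labels give only a shared number.

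Some signs changed, with called members among them. ZNF133, ZNF503, ZNF32, ZNF326, ZNF512, ZNF514 and ZNF787 were called lower on polysomes in vehicle cells, at -0.64 to -0.80, but with library totals polysomes over the light pool in vehicle cells gave 0.24 for ZNF133 and ZNF503, 0.22 for ZNF32, 0.17 for ZNF326, 0.13 for ZNF512, 0.11 for ZNF514 and 0.081 for ZNF787, and ZNF133 gave 0.00054 with TMM within each pool. ZNF579 in the light pool gave 0.056 with library totals. ZNF598 in the light pool gave 0.30 with library totals, 0.28 without both shallow libraries and 0.02 after thinning, and it ran between -0.42 and 0.16 with each library left out in turn. ZNF652, called at 1.00 for polysomes over the light pool in sorafenib cells, gave -0.27 after thinning. The members' median minus that of all tested genes was 0.0042 on polysomes without the filter, -0.027 in sorafenib cells after thinning, and between -0.14 and 0.040 in vehicle cells with each library left out in turn. Depth limits the sorafenib light group most, where 109 members had fewer than 10 counts in library 2.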

Other observations

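Other zinc finger families, taken by symbol, are given as values. Of 33 tested ZBTB genes, whose proteins pair zinc fingers with a BTB domain, 7 rose and 6 fell on polysomes (median log2 fold change 0.10). In the light pool 1 rose and 13 fell (-0.74). That split was 3 to 3 with library totals, beside 24.4% and 8.8% of all tested genes. The ZBTB median minus that of all tested genes was -0.62 there, and -0.64 with library totals. The difference between pools of ZBTB genes was positive for 11 and negative for 0, beside 12.8% and 10.7% of all tested genes. With library totals it was 4 and 0, beside 8.09% and 16%. Of 13 tested ZSCAN genes, which carry a SCAN domain, 1 rose and 1 fell on polysomes (-0.22), and 0 rose and 6 fell in the light pool (-1.29). Of 12 tested ZFP genes 2 rose and 5 fell on polysomes (-0.65), and 0 rose and 3 fell in the light pool (-0.47). Of 6 tested ZKSCAN genes 0 rose and 2 fell in each pool. Of 11 tested KLF genes, a family of Krüppel-like transcription factors, 3 rose and 1 fell on polysomes (0.15), and 0 rose and 1 fell in the light pool (0.14). The calls are those of edgeR's quasi-likelihood test, read beside 20.9% higher and 28.8% lower of all tested genes on polysomes and 11.7% and 17.7% in the light pool.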
